A study of Mus musculus with 6 samples.

Results

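The genes described here build and control the kinetochore, the spindle assembly checkpoint and the start of anaphase. They are a set of 48 genes given by symbol and found in the expression table by NCBI Gene identifier. All 48 had a row among the 16315 genes of the table, and 47 reached the mean of 0.5 FPKM over the 6 libraries that was asked of a tested gene. FPKM is a level that takes transcript length and library size into account. The cells were B16F10, a mouse melanoma line of the C57BL/6 strain that makes pigment, and the series is titled for inhibition of xCT, the chain of a plasma membrane transporter that takes up cystine. One group of 3 libraries came from cells given SAS, which the labels do not spell out, for 24 h at a dose labelled 500 μm. The other group of 3 libraries came from cells given 0.05% DMSO as vehicle. The table heads the SAS columns 24 h and the vehicle columns 0 h, while the protocol describes 24 h for both. If 0 h means cells taken before incubation, a day of culture and SAS cannot be told apart in any difference below.

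Each chromosome carries a centromere, marked by nucleosomes that hold the histone variant CENP-A, and on it a kinetochore assembles. The inner kinetochore reads the centromere, the outer kinetochore grips spindle microtubules, and unattached kinetochores send a checkpoint signal that holds the anaphase-promoting complex inactive. Once every chromosome is attached, that complex, with CDC20 as its activator, marks securin and cyclin B for destruction, separase cuts cohesin and sister chromatids part. Transcripts of most of these genes are known to be highest in cells near mitosis. In these bulk libraries fewer cells near mitosis and less RNA per cell cannot be told apart.

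All 7 melanocytic markers had values, and their summed level was 8730 to 10638 FPKM in the SAS libraries and 7414 to 8362 FPKM in the vehicle libraries. Dct, Tyr, Tyrp1, Pmel, Sox10 and Mitf had higher means in SAS, though the Tyrp1 libraries overlapped between the groups. Mlana went the other way, with a mean of 2073 FPKM in SAS and 2204 FPKM in vehicle, and overlapped too. Of the other cell types checked, the listed markers of leukocytes (1 of 5), endothelium (2 of 3) and keratinocytes (2 of 3) summed to at most 0.05 FPKM in any library, with Krt5 at 0 throughout. The remaining markers of these lists had no listed values. Fibroblast markers (3 of 4 with values) summed to 1.69 to 2.14 FPKM in SAS and 2.16 to 2.7 FPKM in vehicle, most of it Pdgfrb. The Pdgfrb libraries overlapped between the groups (limma adjusted p = 0.054). The part that these differences play in the results was not tested. FPKM sums of the libraries ran from 590238 to 617275, and the number of fragments behind them is unknown.

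FPKM of most of these mitotic genes was lower in the SAS libraries than in the vehicle libraries. In the fit across 10615 genes, 29 of the 47 tested members (61.7%) were lower in SAS and 0 were higher, at a limma adjusted p below 0.05. The same fit called 18.5% of all tested genes lower and 18.9% higher. No member with a positive change had an unadjusted p below 0.05, and 32 with a negative change did. The median log2 fold change, on the log2(FPKM + 1) scale as throughout, was -0.29 for the tested members and -0.01 for all tested genes. Mean FPKM of the called members fell by 9.8% for Bub3 at the small end and by 40.8% for Cenpq at the large end, and the median difference was -25.8%.

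In 29 of the 47 tested members every SAS library lay below every vehicle library, which held for 24.9% of all tested genes. Of the 29 called members 28 were apart in this way, and the exception was Mad2l1. Summed over the 48 genes, the level was 1844, 1827 and 1848 FPKM in the SAS libraries, against 2221, 2334 and 2242 FPKM in the vehicle libraries. The 3 SAS sums lie close together and well under the vehicle sums. Of the 29 calls, 24 held whichever single library was left out, and 5 (Bub1b, Bub3, Mad2l1, Ttk and Nsl1) did not. Vehicle replicate 2 was the highest of all 6 libraries for 30 of the 47 members, and without it 24 members were called and the median was -0.26. SAS replicate 1 was the lowest of the 6 for 20 members and the highest of the SAS libraries for 20 others. These counts include ties with another SAS library, for the lowest value in Dsn1 and Cenpe and for the highest in Ttk. The place of SAS replicate 1 within its group thus differed between members.

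**Figure D1:**
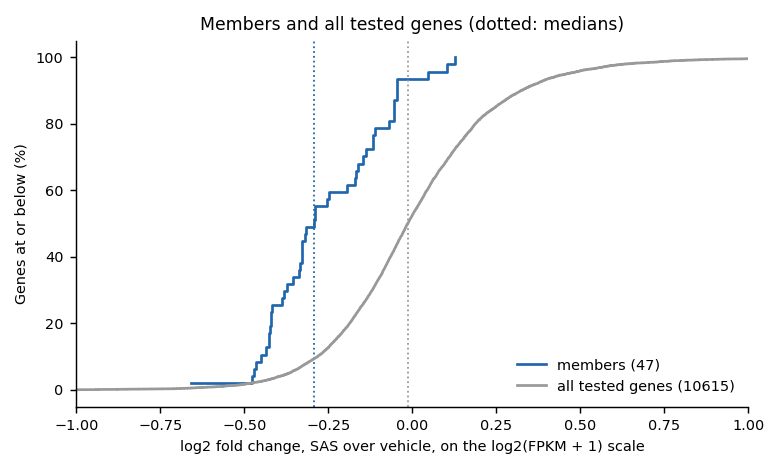
Cumulative share of genes (vertical axis, percent) at or below each log2 fold change of SAS over vehicle (horizontal axis, log2(FPKM + 1) scale, drawn from -1 to 1), for the 47 tested members and all 10615 tested genes, with dotted lines at the medians. The members' curve lies to the left, with a median of -0.29 against -0.01.

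Of the 13 members with a vehicle mean of at least 50 FPKM, 12 were lower in SAS, and the exception was Zwint. Just under that level Cenpm (49.6 FPKM in vehicle), Spc24 (46.9), Knstrn (43.7) and Pttg1 (43.1) did not pass, so the share depends on the cut. The share of all tested genes called at that level is not given here. Among all 30 members at or above 10 FPKM in vehicle 19 were called, and 10 of the 17 below it were. Median transcript length was 2405 bases in called and 2897 bases in uncalled members, and median vehicle level was 16.8 and 16.9 FPKM.

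**Figure D2:**
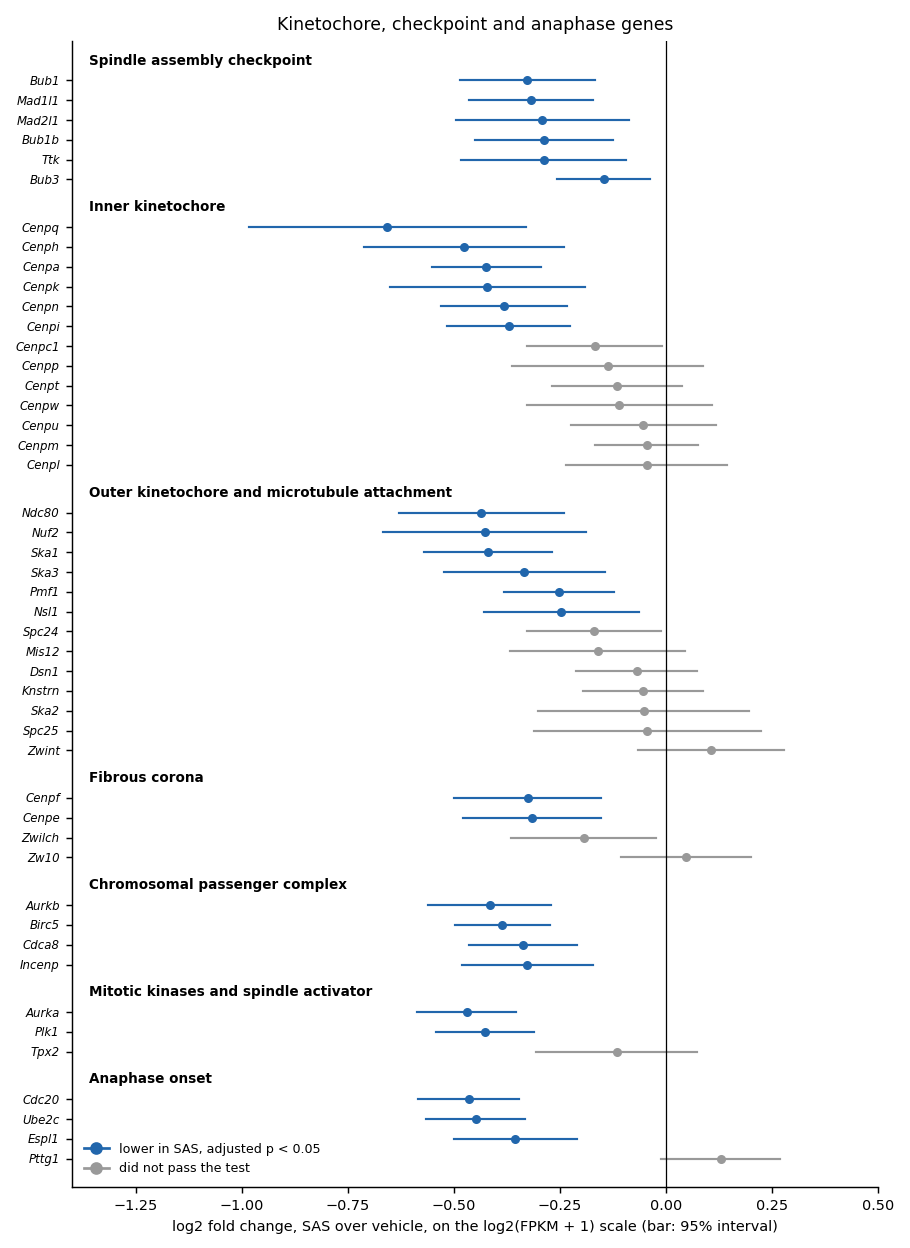
Log2 fold change of SAS over vehicle (horizontal axis, log2(FPKM + 1) scale) for each of the 47 tested members, sorted within 7 roles down the page. Points are estimates and bars 95% intervals from limma, blue where the member was lower at an adjusted p below 0.05 and grey where it did not pass. All 6 checkpoint genes and all 4 passenger complex genes are blue, while inner and outer kinetochore genes are mixed.

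Promoter windows of these genes were searched for known elements of mitotic genes. The cell cycle genes homology region (CHR), through which the DREAM and MMB complexes repress and then activate mitotic genes, reads TTTGAA or, less often, TTTAAA, and the CCAAT element is bound by the factor NF-Y. Windows of 300 bases, from 250 before to 50 after an annotated start, were taken from RefSeq (GRCm38.p6). Of the 48 members 41 matched, with 45 windows. On either strand TTTGAA stood in 46.7% of the members' windows, against 11.7% of the 11045 windows of tested genes and 17.9% of all 32851 windows. TTTAAA stood in 22.2% of the members' windows and 8.81% of those of tested genes, and CCAAT in 68.9% and 37.8%. Close to the start, within 50 bases on either side, TTTGAA was found in 37.8% of the members' windows and 3.01% of those of tested genes. TTTGAA and CCAAT, or its reverse complement ATTGG, can share letters where they abut. A match of letters is a description and does not show binding.

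Among the 40 tested members with a window, 16 had TTTGAA within 50 bases of the start, and 14 of these were lower in SAS, with a median log2 fold change of -0.35. Of the 24 without such a match 11 were lower, with a median of -0.17. Windows follow the starts that RefSeq lists: 34 of the 45 lay within 100 bases of the gene's outer end. Those farthest inside their genes were at 1482 bases for Pttg1, 3078 for Cenpt and 146690 for the second start of Mad1l1. Pttg1 and Cenpt, like Cenpm (437 bases), Cenpc1 (379) and Cenpp (219), count above as uncalled members without TTTGAA near the start. A window set inside its gene may miss an element farther out. Aurka (316) and Ska3 (128) were lower in SAS and had TTTGAA near the start. No test was run on any of these splits by element. The sequences below run from 120 bases before to 30 after the start, 5′ to 3′ on the gene's own strand, and capitals mark TTTGAA (or TTCAAA) and CCAAT (or ATTGG). The first 6 belong to genes that were lower in SAS and hold TTTGAA near the start. Cenpw holds it too and Cenpu does not, and neither passed the test.
Cdc20 (chr4:118437314-118437463, minus strand): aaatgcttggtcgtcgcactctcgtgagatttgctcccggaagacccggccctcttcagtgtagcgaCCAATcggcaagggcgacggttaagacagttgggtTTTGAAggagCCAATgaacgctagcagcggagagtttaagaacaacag
Ube2c (chr2:164769809-164769958, plus strand): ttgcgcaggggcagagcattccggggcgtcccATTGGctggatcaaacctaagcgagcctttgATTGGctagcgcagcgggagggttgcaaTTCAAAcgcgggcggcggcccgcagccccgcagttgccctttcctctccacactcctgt
Espl1 (chr15:102296173-102296322, plus strand): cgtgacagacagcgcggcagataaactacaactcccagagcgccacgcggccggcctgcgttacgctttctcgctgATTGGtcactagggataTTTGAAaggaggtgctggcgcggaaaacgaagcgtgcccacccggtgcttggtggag
Cdca8 (chr4:124936888-124937037, minus strand): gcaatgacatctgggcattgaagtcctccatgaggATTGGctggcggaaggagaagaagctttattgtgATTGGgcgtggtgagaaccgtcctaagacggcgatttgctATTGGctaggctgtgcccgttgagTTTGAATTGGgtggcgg
Cenpa (chr5:30666766-30666915, plus strand): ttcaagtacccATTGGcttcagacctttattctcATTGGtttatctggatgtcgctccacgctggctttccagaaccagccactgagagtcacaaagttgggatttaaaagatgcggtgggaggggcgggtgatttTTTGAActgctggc
Ska3 (chr14:57826134-57826283, minus strand): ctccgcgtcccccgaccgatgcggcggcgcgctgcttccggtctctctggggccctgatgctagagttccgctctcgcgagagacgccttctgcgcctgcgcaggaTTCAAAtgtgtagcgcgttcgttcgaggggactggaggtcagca
Cenpw (chr10:30200511-30200660, minus strand): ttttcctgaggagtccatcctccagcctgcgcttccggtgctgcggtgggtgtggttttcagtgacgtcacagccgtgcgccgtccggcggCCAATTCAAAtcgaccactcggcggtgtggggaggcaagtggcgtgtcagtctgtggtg
Cenpu (chr8:46551949-46552098, plus strand): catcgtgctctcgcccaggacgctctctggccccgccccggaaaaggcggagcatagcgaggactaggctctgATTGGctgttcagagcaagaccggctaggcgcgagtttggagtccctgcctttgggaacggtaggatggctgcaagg
The match in Cdc20 began 18 bases before the start, that in Ube2c 29 before, that in Espl1 27 before and that in Ska3 14 before. In Cdca8 it began at the 14th and in Cenpa at the 17th base after the start. In Cdca8 and Cenpw a CCAAT or ATTGG match shares a letter with the TTTGAA match.

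**Figure D3:**
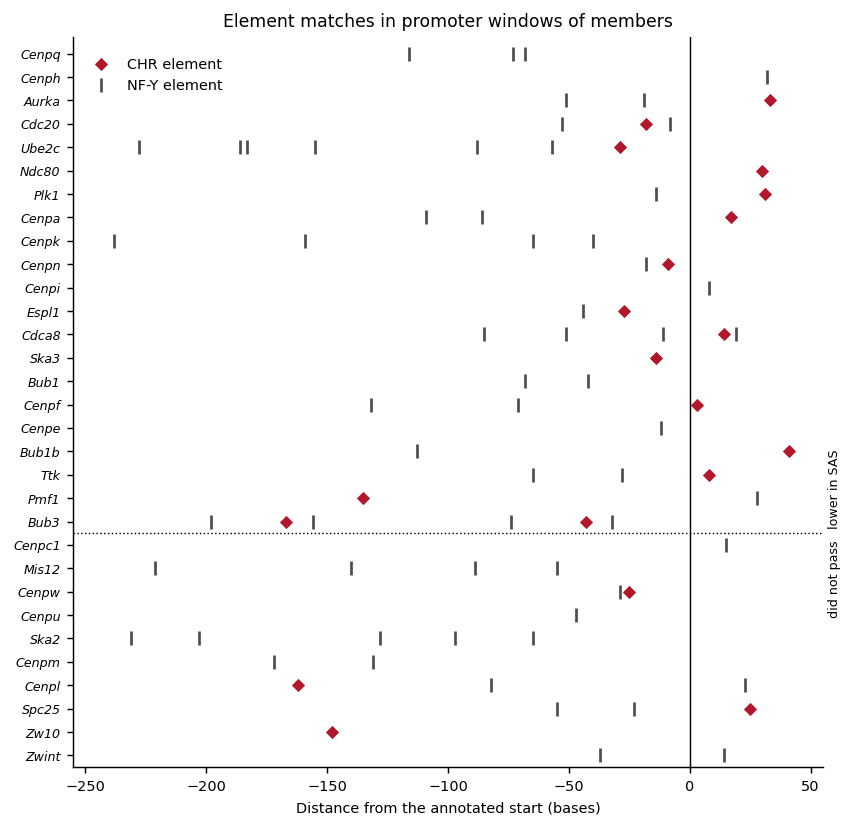
Matches of the CHR element (red diamonds, TTTGAA on either strand) and the NF-Y element (grey ticks, CCAAT on either strand) by distance in bases from the annotated start (horizontal axis), for tested members with a match. Members lower in SAS stand above the dotted line and those that did not pass below it; genes with several listed starts (Bub3 and Cenpk) show the matches of all of them, each by distance from its own start. Red diamonds gather within 50 bases of the start.

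All 6 genes of the spindle assembly checkpoint were lower in SAS, but single libraries decided many of these calls. Without vehicle replicate 2 only 2 of the 6 were called (Bub1 and Mad1l1), without SAS replicate 3 only 3, and 4 without SAS replicate 2, vehicle replicate 1 or vehicle replicate 3. The 6 members, with a median log2 fold change of -0.29, are the kinases Bub1 and Ttk, the BUBR1 gene Bub1b, its partner Bub3, and Mad1l1 and Mad2l1, whose proteins form the template and the diffusible unit of the checkpoint signal. Bub1 stood at 2.68, 2.67 and 2.44 FPKM in SAS, against 3.51, 3.79 and 3.25 FPKM in vehicle (log2 fold change -0.33, SE 0.07, limma adjusted p = 0.00492). Mad1l1 stood at 28.8, 28.3 and 30.5 FPKM in SAS, against 37.5, 39.1 and 33.6 FPKM in vehicle (log2 fold change -0.32, SE 0.07, limma adjusted p = 0.00349). In both genes all SAS libraries lay under all vehicle libraries.

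Bub1b stood at 23.0, 24.8 and 24.5 FPKM in SAS, against 29.8, 32.7 and 26.7 FPKM in vehicle (log2 fold change -0.29, SE 0.07, limma adjusted p = 0.0108). SAS and vehicle libraries were apart, but without vehicle replicate 2, the highest library, the call was lost (limma adjusted p = 0.0512). Mad2l1 stood at 62.0, 45.9 and 51.6 FPKM in SAS, against 60.8, 66.2 and 67.7 FPKM in vehicle (log2 fold change -0.29, SE 0.09, limma adjusted p = 0.0287). SAS replicate 1 lay above vehicle replicate 1, so the groups overlapped. The Mad2l1 call was lost without SAS replicate 2 or 3 (limma adjusted p = 0.101 and 0.0642), without vehicle replicate 2 or 3 (0.0897 and 0.0802), with no filter on low genes (0.0949) and with a correction for length and GC content (0.118).

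Ttk, the kinase also called MPS1 that starts the signal, averaged 1.43 ± 0.202 FPKM in SAS and 1.97 ± 0.281 FPKM in vehicle (SD, n = 3 each, here and wherever means are given; log2 fold change -0.29, limma adjusted p = 0.025). That call was lost without SAS replicate 3 (limma adjusted p = 0.0986), vehicle replicate 1 (0.0715) or vehicle replicate 2 (0.0977), and with no filter (0.0723). Bub3 was the most abundant of the 6 and changed least, with 154 ± 3.20 FPKM in SAS and 170.2 ± 4.34 FPKM in vehicle (log2 fold change -0.15, limma adjusted p = 0.0387). Its call was lost in 5 of the 6 fits that left out a library, those without SAS replicate 2 or 3 (limma adjusted p = 0.0676 and 0.118) and without vehicle replicate 1, 2 or 3 (0.144, 0.0601 and 0.0788). It was also lost with size factors (limma adjusted p = 0.0637), a common FPKM sum (0.0646), no intensity trend (0.0677) and the length and GC correction (0.253).

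Of the inner kinetochore, 6 of 13 members were lower in SAS and 7 did not pass. All 13 had a negative log2 fold change, with a median of -0.17. Cenpa, the histone variant itself, stood at 68.4, 71.7 and 77.4 FPKM in SAS, against 94.4, 99.4 and 98.7 FPKM in vehicle (log2 fold change -0.42, SE 0.06, limma adjusted p = 0.000302). In Cenpa every vehicle library lay well above every SAS library. Cenpq had the lowest log2 fold change of the 47 tested members, with 5.22, 2.75 and 3.44 FPKM in SAS, against 6.12, 7.13 and 6.02 FPKM in vehicle (log2 fold change -0.66, SE 0.15, limma adjusted p = 0.0055). SAS replicate 1 was well above the other SAS libraries in Cenpq yet below every vehicle library.

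CENP-H, CENP-I, CENP-K and CENP-M form a single subcomplex of the constitutive centromere network; 3 of its 4 genes were lower, and all 4 had a negative log2 fold change. Cenph stood at 9.79, 7.1 and 9.18 FPKM in SAS, against 11.1, 13.6 and 12.6 FPKM in vehicle (log2 fold change -0.48, SE 0.11, limma adjusted p = 0.00542). Cenpi averaged 1.39 ± 0.10 FPKM in SAS and 2.09 ± 0.0751 FPKM in vehicle (log2 fold change -0.37, limma adjusted p = 0.00142). Cenpk averaged 2.20 ± 0.153 FPKM in SAS and 3.32 ± 0.665 FPKM in vehicle (log2 fold change -0.42, limma adjusted p = 0.009). All 3 were apart between the groups. Cenpm, at 49.6, 46.5 and 47.9 FPKM in SAS and 47.5, 51.7 and 49.8 FPKM in vehicle, overlapped and did not pass (log2 fold change -0.05, 95% interval -0.17 to 0.08).

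Cenpn, whose protein reads the CENP-A nucleosome, averaged 11.1 ± 0.836 FPKM in SAS and 14.8 ± 0.312 FPKM in vehicle (log2 fold change -0.38, limma adjusted p = 0.00138). Its partner Cenpl averaged 2.47 ± 0.276 and 2.59 ± 0.31 FPKM in SAS and vehicle, and did not pass (log2 fold change -0.05, 95% interval -0.24 to 0.14). Cenpc1, which encodes the CENP-C scaffold, averaged 1.28 ± 0.118 FPKM in SAS and 1.56 ± 0.153 FPKM in vehicle; its groups were apart, but it did not pass (log2 fold change -0.17, limma adjusted p = 0.0883). Cenpt and Cenpw, which encode histone-fold proteins, averaged 13.3 ± 0.781 and 31.4 ± 3.68 FPKM in SAS, against 14.5 ± 0.893 and 34.0 ± 4.39 FPKM in vehicle. Neither passed (limma adjusted p = 0.21 and 0.405), although Cenpt passed after the length and GC correction (limma adjusted p = 0.04). Cenpp and Cenpu, which with CENP-Q belong to another subcomplex, averaged 4.59 ± 0.759 and 4.55 ± 0.297 FPKM in SAS, against 5.13 ± 0.518 and 4.76 ± 0.431 FPKM in vehicle, and did not pass (limma adjusted p = 0.314 and 0.614).

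Of the outer kinetochore, 6 of 13 tested members were lower in SAS and 7 did not pass. In 12 of the 13 the log2 fold change was negative, with a median of -0.17. The NDC80 complex is the rod that binds microtubules: NDC80 and NUF2 form its microtubule end, SPC24 and SPC25 its kinetochore end. Ndc80 stood at 2.96, 2.98 and 2.83 FPKM in SAS, against 4.15, 5.07 and 3.78 FPKM in vehicle (log2 fold change -0.44, SE 0.09, limma adjusted p = 0.00307). Nuf2 stood at 9.19, 7.01 and 8.02 FPKM in SAS, against 9.51, 12.8 and 11.3 FPKM in vehicle (log2 fold change -0.43, SE 0.11, limma adjusted p = 0.0104). Both genes of the microtubule end were apart between the groups. Spc24 stood at 44.4, 39.9 and 40.1 FPKM in SAS, against 44.2, 44.7 and 51.8 FPKM in vehicle (log2 fold change -0.17, limma adjusted p = 0.0823). Spc25 stood at 21.9, 16.1 and 17.8 FPKM in SAS, against 15.8, 22.0 and 19.8 FPKM in vehicle (log2 fold change -0.04, 95% interval -0.31 to 0.22).

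Both genes of the kinetochore end overlapped between the groups, and SAS replicate 1 was the highest SAS library in each. Without that library Spc24 passed (limma adjusted p = 0.0391), as it did after the length and GC correction (0.0136). The ratio of Spc25 to Ndc80 FPKM was 7.4, 5.39 and 6.28 in SAS, against 3.8, 4.34 and 5.24 in vehicle, without overlap. That ratio and the others given here were chosen after the values were seen, and no test was run on them or on any difference in response between members.

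Of the SKA complex, which tracks microtubule ends, 2 of 3 genes were lower, and all 3 had a negative log2 fold change. Ska1 stood at 6.42, 5.94 and 6.17 FPKM in SAS, against 8.26, 9.15 and 8.4 FPKM in vehicle (log2 fold change -0.42, SE 0.07, limma adjusted p = 0.000855). Ska3 averaged 8.54 ± 0.941 FPKM in SAS and 11.01 ± 0.866 FPKM in vehicle (log2 fold change -0.33, limma adjusted p = 0.0112). Ska2, at 12.3 ± 2.0 FPKM in SAS and 12.8 ± 1.76 FPKM in vehicle, did not pass (log2 fold change -0.05, 95% interval -0.30 to 0.20). The ratio of Ska2 to Ska1 FPKM was 1.74 to 2.23 in SAS and 1.37 to 1.62 in vehicle, without overlap.

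In the MIS12 complex, the bridge between inner and outer kinetochore, Pmf1 was lower, at 203 ± 3.51 FPKM in SAS and 243 ± 16.4 FPKM in vehicle (log2 fold change -0.25, limma adjusted p = 0.00637). Nsl1 was lower too, at 5.71 ± 0.594 FPKM in SAS and 6.95 ± 0.485 FPKM in vehicle (log2 fold change -0.25, limma adjusted p = 0.0367). The Nsl1 call was lost without SAS replicate 1 or 3 (limma adjusted p = 0.114 and 0.0562), without vehicle replicate 2 or 3 (0.129 and 0.0705), with no filter (0.0882) and with a common FPKM sum (0.057). Mis12 averaged 5.56 ± 0.23 FPKM in SAS and 6.38 ± 1.03 FPKM in vehicle, and Dsn1 averaged 7.78 ± 0.341 FPKM in SAS and 8.2 ± 0.18 FPKM in vehicle. Neither passed (limma adjusted p = 0.198 and 0.429).

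Knl1, the scaffold that docks BUB proteins, was listed at 0.25, 0.29 and 0.29 FPKM in SAS, against 0.50, 0.50 and 0.39 FPKM in vehicle. Its mean of 0.37 FPKM kept it out of the test; the groups were apart, and without the filter on low genes it passed (log2 fold change -0.20, limma adjusted p = 0.0107). The KNL1 partner Zwint stood at 69.9, 54.9 and 58.6 FPKM in SAS, against 55.8, 57.1 and 56.6 FPKM in vehicle (log2 fold change 0.10, 95% interval -0.07 to 0.28, limma adjusted p = 0.318). SAS replicates 1 and 3 lay above every vehicle library of Zwint, and SAS replicate 2 lay below them. Knstrn, which encodes a spindle and kinetochore protein, averaged 42.1 ± 3.52 FPKM in SAS and 43.7 ± 0.683 FPKM in vehicle and did not pass (limma adjusted p = 0.538).

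**Figure D4:**
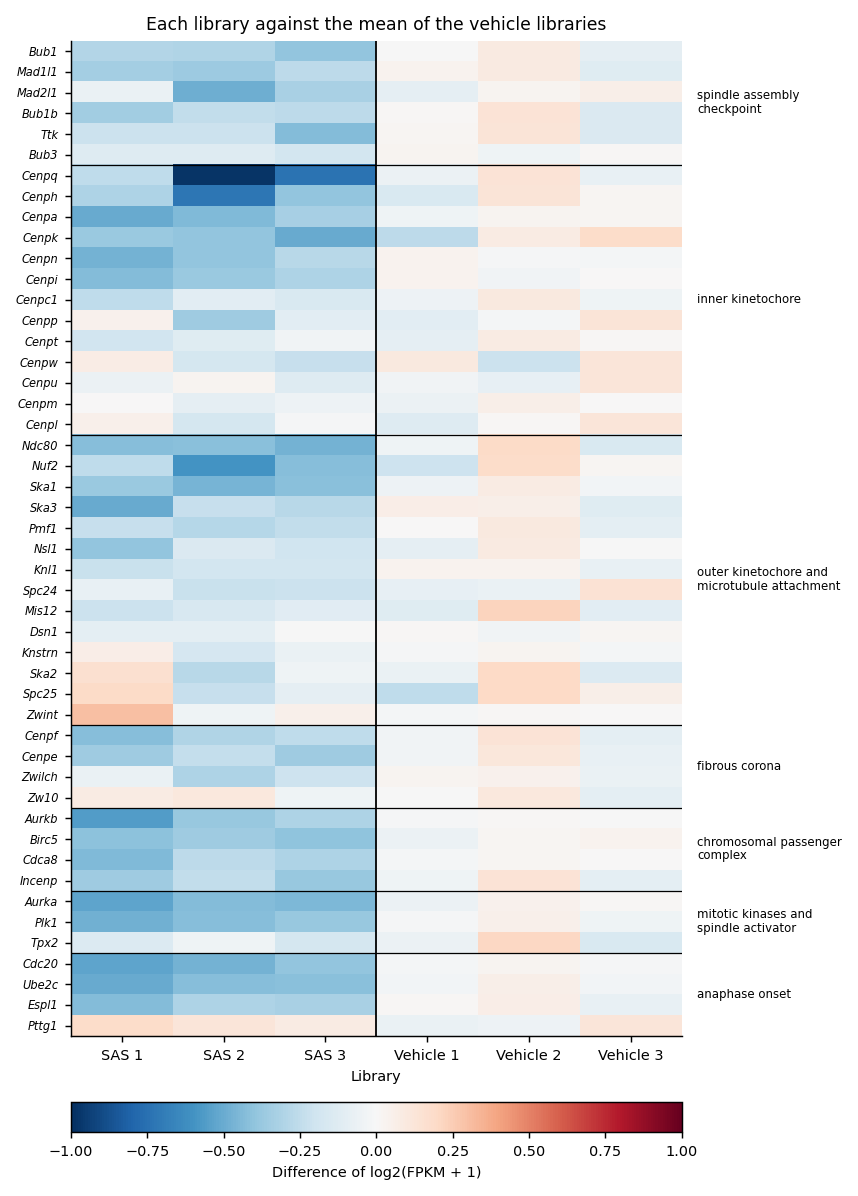
Difference of log2(FPKM + 1) between each library (columns, SAS on the left) and the mean of the 3 vehicle libraries, for the 48 genes (rows, grouped by role). Blue is lower and red higher. SAS columns are blue for most rows, and SAS replicate 1 is pale or red for Mad2l1, Spc25, Ska2 and Zwint.

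In the fibrous corona, the outermost layer of unattached kinetochores, 2 of 4 members were lower. Cenpf stood at 0.81, 0.98 and 1.04 FPKM in SAS, against 1.37, 1.67 and 1.28 FPKM in vehicle (log2 fold change -0.33, SE 0.08, limma adjusted p = 0.00793). Cenpe, a kinetochore motor, stood at 1.19, 1.38 and 1.19 FPKM in SAS, against 1.73, 2.03 and 1.66 FPKM in vehicle (log2 fold change -0.32, SE 0.07, limma adjusted p = 0.00675). For both, the groups were apart at a low level. Zw10 and Zwilch encode parts of the RZZ complex, which recruits dynein and MAD proteins. Zw10 averaged 20.6 ± 1.18 FPKM in SAS and 19.9 ± 1.45 FPKM in vehicle and did not pass (log2 fold change 0.05, 95% interval -0.11 to 0.20). Zwilch averaged 6.58 ± 0.655 FPKM in SAS and 7.66 ± 0.352 FPKM in vehicle and did not pass (log2 fold change -0.19, limma adjusted p = 0.0713), but passed without SAS replicate 1 (limma adjusted p = 0.0229) and with quantile normalization (0.0462).

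All 4 genes of the chromosomal passenger complex, which corrects faulty attachments and later acts in cytokinesis, were lower in SAS, with a median log2 fold change of -0.36. The kinase Aurkb stood at 62.6, 71.3 and 74.8 FPKM in SAS, against 92.3, 93.6 and 92.9 FPKM in vehicle (log2 fold change -0.42, SE 0.07, limma adjusted p = 0.000693). Survivin (Birc5) stood at 163, 169 and 164 FPKM in SAS, against 208, 219.7 and 221 FPKM in vehicle (log2 fold change -0.39, SE 0.05, limma adjusted p = 0.000229). Borealin (Cdca8) stood at 68.1, 77.1 and 74.6 FPKM in SAS, against 91.4, 93.8 and 92.9 FPKM in vehicle (log2 fold change -0.34, SE 0.06, limma adjusted p = 0.00115). Incenp, the scaffold, averaged 45.2 ± 2.38 FPKM in SAS and 57.1 ± 5.13 FPKM in vehicle (log2 fold change -0.33, limma adjusted p = 0.00407). No SAS library reached a vehicle library in any of the 4, and SAS replicate 1 was the lowest library for Aurkb, Birc5 and Cdca8.

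Of the mitotic kinases, Aurka, which matures centrosomes and spindle poles, stood at 75.1, 79.9 and 79.1 FPKM in SAS, against 104, 112 and 109.6 FPKM in vehicle (log2 fold change -0.47, SE 0.05, limma adjusted p = 8.82e-05). Plk1, which acts at centrosomes, kinetochores and the midbody, stood at 117, 122 and 125 FPKM in SAS, against 162, 169 and 159 FPKM in vehicle (log2 fold change -0.43, SE 0.05, limma adjusted p = 0.000151). Both differences were several times their standard errors. Tpx2, whose protein activates Aurora A on the spindle, stood at 28.8, 30.8 and 27.9 FPKM in SAS, against 30.4, 36.8 and 28.4 FPKM in vehicle and did not pass (log2 fold change -0.12, 95% interval -0.31 to 0.07). The ratio of Aurka to Tpx2 FPKM was 2.6 to 2.83 in SAS and 3.04 to 3.86 in vehicle, without overlap.

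At anaphase onset 3 of 4 genes were lower. Cdc20, the activator that the checkpoint holds back, stood at 60.7, 63.4 and 66.7 FPKM in SAS, against 87.2, 89.8 and 87.6 FPKM in vehicle (log2 fold change -0.47, SE 0.05, limma adjusted p = 9.93e-05). Ube2c, which starts ubiquitin chains for the anaphase-promoting complex, was the most abundant member and stood at 204, 215 and 216 FPKM in SAS, against 283, 301 and 284 FPKM in vehicle (log2 fold change -0.45, SE 0.05, limma adjusted p = 0.00011). Separase (Espl1) stood at 12.1, 13.4 and 13.1 FPKM in SAS, against 16.9, 17.6 and 15.9 FPKM in vehicle (log2 fold change -0.36, SE 0.07, limma adjusted p = 0.00181). All 3 were apart between the groups.

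Securin (Pttg1), the inhibitor and chaperone of separase, went the other way in sign. It stood at 49.1, 46.8 and 45.7 FPKM in SAS, against 41.0, 41.4 and 46.9 FPKM in vehicle (log2 fold change 0.13, SE 0.06, limma adjusted p = 0.136). Vehicle replicate 3 lay among the SAS libraries, and without it Pttg1 was called higher (limma adjusted p = 0.0346), the only setting of those run that called any member higher. The ratio of Pttg1 to Espl1 FPKM was 4.04, 3.5 and 3.47 in SAS, against 2.43, 2.36 and 2.96 in vehicle, and that of Pttg1 to Cdc20 was 0.685 to 0.808 in SAS and 0.462 to 0.536 in vehicle. Neither ratio overlapped between the groups.

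**Figure D5:**
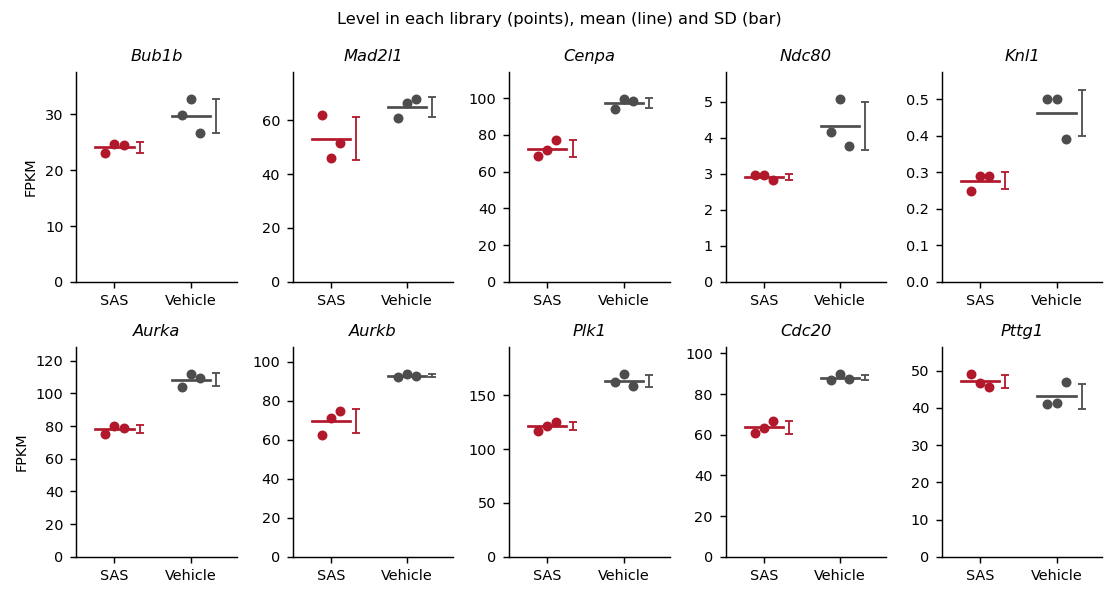
FPKM (vertical axes, from 0) of 10 members in the 3 SAS libraries (red) and the 3 vehicle libraries (grey), with the mean as a line and the SD as a bar beside it. SAS points lie below all vehicle points in every panel but Mad2l1 and Pttg1.

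Lists of further genes of the same machinery were counted in the same fit, which called 18.5% of all tested genes lower and 18.9% higher. Mis18a and Oip5, which act in the loading of CENP-A, were lower in SAS. Mis18a averaged 20.3 ± 0.818 FPKM in SAS and 26.5 ± 1.86 FPKM in vehicle (log2 fold change -0.37, limma adjusted p = 0.00148). Oip5 averaged 7.51 ± 0.622 FPKM in SAS and 9.64 ± 0.821 FPKM in vehicle (log2 fold change -0.32, limma adjusted p = 0.00969). Of genes that silence the checkpoint, protect centromeric cohesion or act beside Aurora and Polo kinases, 8 of 9 were lower and 0 higher (median log2 fold change -0.27). Kntc1, Spdl1, Trip13 and Bora each lost the call in some fit without a library: 4 of the 9 were lower without SAS replicate 1 or vehicle replicate 2, and 5 without SAS replicate 3 or vehicle replicate 1. Shugoshin (Sgo1) averaged 2.47 ± 0.216 FPKM in SAS and 4.17 ± 0.382 FPKM in vehicle (log2 fold change -0.58, limma adjusted p = 0.000306). Sgo2a averaged 1.14 ± 0.115 FPKM in SAS and 1.86 ± 0.2 FPKM in vehicle, and the histone H3 kinase Haspin 5.5 ± 0.479 FPKM in SAS and 7.49 ± 0.431 FPKM in vehicle.

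Of 6 other centromere proteins, 2 were lower (33.3%) and 1 higher (median log2 fold change -0.01, as for all tested genes). Among all tested genes 18.5% were lower and 18.9% higher, and no test was run against these shares. Cenpb, which binds a DNA box in centromeric repeats, was higher at 171.5 ± 13.5 FPKM in SAS and 145 ± 2.27 FPKM in vehicle (log2 fold change 0.24, limma adjusted p = 0.0112). Cenpv averaged 26.9 ± 0.158 FPKM in SAS and 31.8 ± 0.34 FPKM in vehicle (log2 fold change -0.23, limma adjusted p = 0.00544). Cenps averaged 20.5 ± 0.452 FPKM in SAS and 23.3 ± 1.47 FPKM in vehicle (limma adjusted p = 0.0414). The Cenps call was lost without SAS replicate 2 or 3 (limma adjusted p = 0.105 and 0.0846) and without vehicle replicate 1 or 3 (0.176 and 0.0908). Of 17 subunits and regulators of the anaphase-promoting complex, 5 were lower (29.4%, against 18.5% of all tested genes) and 0 higher (median log2 fold change -0.06). Without vehicle replicate 1 the count was 3, since Anapc15 and Cdc23 lost the call (limma adjusted p = 0.0564 and 0.153), and it was 4 to 6 with another library left out. The 3 with the largest changes were regulators rather than core subunits. The inhibitor Fbxo5 (EMI1) averaged 9.78 ± 0.139 FPKM in SAS and 14.1 ± 1.43 FPKM in vehicle (log2 fold change -0.48, limma adjusted p = 0.000642), the activator Fzr1 62.7 ± 2.02 FPKM in SAS and 75.2 ± 2.01 FPKM in vehicle, and the chain-extending enzyme Ube2s 816 ± 3.74 FPKM in SAS and 965 ± 15.4 FPKM in vehicle.

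Of 12 genes of the DREAM and MMB complexes and their partner FOXM1, 6 were lower and 1 higher (median log2 fold change -0.19). Mybl2 averaged 26.7 ± 0.338 FPKM in SAS and 41.4 ± 2.38 FPKM in vehicle (log2 fold change -0.61, limma adjusted p = 2.95e-05), Foxm1 54.0 ± 3.21 FPKM in SAS and 74.7 ± 6.39 FPKM in vehicle (log2 fold change -0.46, limma adjusted p = 0.000602). The pocket protein gene Rbl1 averaged 5.31 ± 0.234 FPKM in SAS and 7.42 ± 0.566 FPKM in vehicle (log2 fold change -0.41, limma adjusted p = 0.00138). Lin37, a core subunit, was higher at 19.3 ± 0.604 FPKM in SAS and 16.9 ± 0.30 FPKM in vehicle (limma adjusted p = 0.0306). The Lin37 call was lost without SAS replicate 2 or 3 (limma adjusted p = 0.0561 and 0.109) and without vehicle replicate 1, 2 or 3 (0.0898, 0.0631 and 0.0726).

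Exons of 9 members overlap those of a listed gene on the opposite strand in GENCODE M21. No source says whether the authors' counting used strand, so reads from the shared stretch of such pairs cannot be told apart. Overlaps of any length were included, and their lengths were not measured. These members are Cdc20, Ube2c, Mis12, Zwilch, Ska3 and 4 centromere genes (Cenpp, Cenpq, Cenpt and Cenpu). Partners at very low levels were Tnnc2 beside Ube2c (mean 0.33 FPKM), Lctl beside Zwilch (0.29 FPKM) and Tsnaxip1 beside Cenpt (0.03 FPKM). Partners that were themselves higher in SAS are Elovl1 beside Cdc20 (mean 86.0 FPKM, log2 fold change 0.29), Derl2 beside Mis12 (25.7 FPKM, 0.44) and Primpol beside Cenpu (1.57 FPKM, 0.25). Cdc20 was lower with a partner that was higher, and what the overlap adds to either level was not tested.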

How the data were processed

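Total RNA of B16F10 cells was sequenced as 3 SAS and 3 vehicle libraries on the BGISEQ-500 platform, per the labels' protocols. Values are FPKM, per the file headers, in 1 table that the authors deposited with 2 decimals. FastQC, HISAT and Bowtie2 are named without roles or versions, per the submitters' processing notes. No build, annotation or FPKM program is given in the sources used here, so coordinates are printed only for RefSeq promoters, with that table's own build. FPKM is relative within a library, so other genes fall when abundant ones rise. Columns named 24 h were taken as SAS by the treatment label and columns named 0 h as vehicle by elimination, with the last number as replicate. Nothing in the labels ties replicates to separate cultures; p-values thus reflect how much these libraries scatter, a scatter that may be technical. No pair of libraries had over 0.85% identical values among genes with a mean of 0.5 FPKM or more.

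Identifiers matched RefSeq symbols (GRCm38.p6) for 16206 of 16315 genes. Depth is unknown: of 1161 low genes, 2 moved in whole steps (tolerance 0.15), so reads were not recovered and no count test was run. The test was limma 3.58.1 (R 4.3.3) on log2(FPKM + 1) with an intensity trend, for the 10615 genes averaging 0.5 FPKM or more, Benjamini-Hochberg adjusted over all of them, two-sided, threshold 0.05. This scale understates changes of low genes. The script was tested on simulated data. Summaries, motif searches and plots used Python 3.11.15, pandas 2.3.3, numpy 2.4.6, scipy 1.17.1 and matplotlib 3.10.9.

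The members and lists were chosen with earlier results of these data known, so no set test is given. Values in every library are printed for up to 3 called members per role with the largest absolute log2 fold change, and in any case for Bub1b, Mad2l1, Cenpa, Ndc80, Knl1, Aurka, Aurkb, Plk1, Cdc20 and Pttg1; uncalled members are all named with values (in every library for Cenpm, Spc24, Spc25, Zwint and Tpx2, chosen after the values were seen), and of each other list up to 3 called genes. Other called genes of those lists are counted only, and the count of the CENP-A loading list is not reported here. Lin37, Kntc1, Spdl1, Trip13, Bora, Anapc15, Cdc23, Elovl1, Derl2 and Primpol were named, and the printed sequences chosen, after the values were seen. Other settings tried were each library left out, a filter at 5 FPKM and none, pseudocounts of 0.1 and 0.5, size factors, a common FPKM sum, quantile normalization, a replicate block, no trend and robust estimation. A correction for transcript length and GC content (GENCODE M21, 98.7% of tested genes) was added after seeing the data.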

Additional observations from a re-analysis of the deposited data

How the results depend on the processing

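The count of members lower in SAS, 29, was 27 to 30 under the other pseudocounts, scalings, variance models, the correction for length and GC content, and no filter, and 22 of 36 when only genes averaging 5 FPKM or more were tested. With each library left out in turn it was 24 to 30, and the count of members higher was 0 to 1, the 1 being Pttg1 without vehicle replicate 3. The median log2 fold change of the members, -0.29, was -0.33 with a pseudocount of 0.1, -0.32 with 0.5 and -0.25 after the length and GC correction, which was chosen after seeing the data, and -0.34 to -0.26 with a library left out. The pseudocount sets how far low genes are compressed; the cause of the other shifts was not tested. Members that did not pass and changed sign were Cenpl, Cenpw and Ska2 after that correction (0.049, 0.050 and 0.035), and, with libraries left out, Cenpl (-0.11 to 0.019), Cenpu (-0.096 to 0.0058), Spc25 (-0.17 to 0.055), Ska2 (-0.16 to 0.058), Knstrn (-0.12 to 0.00076) and Zw10 (-0.0021 to 0.098). No called member changed sign in any of these fits. All tested genes lower numbered 1963 and higher 2006, and 1334 to 1899 and 1500 to 1950 with a library left out. Deviations from the group means correlated at -0.08, 0.145 and 0.234 between SAS and vehicle libraries of the same number, and at -0.406 to 0.347 for different numbers. Deviations within a group of 3 sum to 0, so these correlations cannot decide whether the replicate numbers pair the libraries. With a replicate block 29 members were lower and 0 higher, and 2158 and 2187 of all tested genes. Fragment depth is unknown, so counting error at members near 1 FPKM, such as Cenpf and Cenpc1, cannot be given.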

Other observations

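Many genes that hold and fold mitotic chromosomes were also lower in SAS. Of 8 condensin genes, whose complexes compact chromosomes, 6 were lower and 0 higher, with a median log2 fold change of -0.42. The count stayed at 6 whichever single library was left out. Smc4, a core ATPase, averaged 2.99 ± 0.25 FPKM in SAS and 4.88 ± 0.693 FPKM in vehicle (log2 fold change -0.56, limma adjusted p = 0.000903). Ncapd2 averaged 80.3 ± 2.64 FPKM in SAS and 112.9 ± 8.56 FPKM in vehicle (log2 fold change -0.48, limma adjusted p = 0.000202), and Ncapg2 2.41 ± 0.283 FPKM in SAS and 3.77 ± 0.628 FPKM in vehicle. Of 13 genes of cohesin and its regulators, 7 were lower and 0 higher (median log2 fold change -0.29). With a library left out, 6 to 8 of the 13 were lower. The acetyltransferase Esco2 averaged 0.617 ± 0.0569 FPKM in SAS and 1.38 ± 0.135 FPKM in vehicle (log2 fold change -0.56, limma adjusted p = 0.000136). Stag1 averaged 2.58 ± 0.187 FPKM in SAS and 4.08 ± 0.335 FPKM in vehicle, and Stag2 1.69 ± 0.0971 FPKM in SAS and 2.67 ± 0.0985 FPKM in vehicle.

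Of 14 spindle and midbody genes 11 were lower and 0 higher, with a median log2 fold change of -0.33. With a library left out, 9 to 11 of the 14 were lower. Nusap1, which bundles spindle microtubules, averaged 5.06 ± 0.869 FPKM in SAS and 7.84 ± 1.12 FPKM in vehicle (log2 fold change -0.55, limma adjusted p = 0.00381). The microtubule depolymerase Kif2c averaged 14.2 ± 0.32 FPKM in SAS and 20.4 ± 1.21 FPKM in vehicle (log2 fold change -0.49, limma adjusted p = 0.000189), and the abscission gene Cep55 3.68 ± 0.309 FPKM in SAS and 5.4 ± 0.729 FPKM in vehicle. In the fit over all tested genes 18.5% were lower.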
